A study of Mus musculus with 10 samples.

Results

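B cell identity genes are genes whose products mark B lymphocytes, and 9 of them were followed in whole lungs of young mice: Cd79a, Cd79b, Ms4a1, Cd22, Pax5, Blk, Fcer2a, Cr2 and Bank1. They were taken by symbol from the 54532 genes of the deposited expression table, and each symbol matched 1 gene. They were chosen by their known difference between the groups in these same lungs, so that difference is given as a description. The mice were wild-type C57BL/6J. The 5 lungs of the increased pulmonary flow (IPF) group came from mice with an aortocaval fistula, an opening between the abdominal aorta and the inferior vena cava made on postnatal day 7 (P7), which sends more blood through the right heart and the lungs. The 5 sham lungs came from mice whose vessels were exposed but not punctured. Whole lungs of both groups were taken at P30. The replicates are numbered without naming the animal of each, so p-values measure the spread between these samples.

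A B cell recognises antigen with a membrane immunoglobulin, whose signal is carried by the paired chains CD79A and CD79B. Kinases such as BLK start that signal, adaptors such as BANK1 assemble its enzymes, the co-receptor that holds CD21 (Cr2) and CD81 lowers its threshold, and the sialic acid receptor CD22 restrains it. PAX5 is the transcription factor that commits a cell to the B lineage and is switched off in plasma cells. In a healthy mouse lung, B cells are found in blood vessels, scattered in the tissue and, after stimulation, in small lymphoid aggregates.

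The libraries held 15483046 to 19026843 reads on genes. Whole-lung identity was plain in every sample, with Sftpc, a surfactant protein gene of alveolar type 2 cells, between 9437 and 16514 FPKM (fragments scaled by gene length and library size), and the endothelial gene Pecam1 between 156 and 189 FPKM. Sham replicate 1 stood somewhat apart, with a mean Spearman correlation to the other libraries of 0.957 across genes, which are not independent replicates, where the 9 others lay between 0.963 and 0.968. Of 11 lung markers in all, 2 rose, Cldn5 of endothelium (0.56, limma adjusted p = 0.0107) and Pdgfra of fibroblasts (0.35, limma adjusted p = 0.0212), and 0 fell (1 with voom). Pdgfra lost its call with quantile normalization, without IPF replicate 4 and without sham replicate 2 (limma adjusted p up to 0.0599). Other features divided the libraries exactly as the operation did. Xist, expressed from the X chromosome of female cells, was at 26.8 to 43.2 FPKM in the IPF lungs and at 0.0301 to 0.0767 FPKM in the sham lungs, and the Y-linked Ddx3y was listed at 0 in all IPF lungs and at 14.3 to 21.4 FPKM in the sham lungs. The clock gene Dbp, whose level follows the time of day, was at 1.74 to 3.49 FPKM in the IPF lungs and at 23.2 to 29.3 FPKM in the sham lungs. The fistula, the sex of the mice and the state of the clock cannot be told apart in any difference given here.

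Promoter windows of RefSeq (GRCm38.p6, the build of the positions in the deposited table) were found for 6 of the 9 genes, in 8 windows that run from 250 bases before to 50 bases after a start site. Cd79b, Ms4a1 and Blk were not among them. The stretches of Cd79a and Pax5, which differed clearly between the groups, and of Cr2, which differed least, are shown for comparison, each without bases of the deposited gene model, and with them the only stretch of a member that held a searched motif, in Cd22. Capitals mark that motif, and each sequence is written 5′ to 3′ on the strand of its gene.
Cd79a, chr7:24897247-24897380, plus strand: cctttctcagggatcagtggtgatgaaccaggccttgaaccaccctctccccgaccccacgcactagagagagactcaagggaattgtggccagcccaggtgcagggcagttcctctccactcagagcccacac
Pax5, chr4:44710695-44710944, minus strand: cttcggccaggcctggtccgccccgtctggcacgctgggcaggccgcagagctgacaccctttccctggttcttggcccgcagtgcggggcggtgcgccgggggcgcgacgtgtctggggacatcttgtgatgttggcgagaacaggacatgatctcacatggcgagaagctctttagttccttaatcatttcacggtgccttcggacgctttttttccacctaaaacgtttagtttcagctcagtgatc
Cr2, chr1:195176720-195176969, minus strand: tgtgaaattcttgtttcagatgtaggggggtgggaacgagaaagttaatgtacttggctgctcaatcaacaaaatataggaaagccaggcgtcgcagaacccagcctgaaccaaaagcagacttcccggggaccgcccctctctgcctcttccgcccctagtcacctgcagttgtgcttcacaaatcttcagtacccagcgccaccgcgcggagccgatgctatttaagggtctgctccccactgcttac
Cd22, chr7:30879058-30879087, minus strand: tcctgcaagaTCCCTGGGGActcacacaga

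The motifs searched on both strands of the whole windows were the octamer ATGCAAAT, an early B cell factor (EBF) pattern of TCCC, any 2 bases and GGGA, and an NF-kB pattern of GGGAA, any 3 bases and CC. The EBF letters were in 1 of the 8 member windows, that of Cd22, starting 49 bases before the start site of RefSeq, and in 0.904% of 32851 windows of all genes. This place lies within the longer Cd22 model of the deposited table (30865402 to 30880342). The octamer, held by 1.74% of all windows, and the NF-kB letters, held by 5.78%, were in 0 of the 8. These matches describe letters in short windows and no binding was measured.

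All 9 genes had higher mean levels in the IPF lungs than in the sham lungs. The differences in log2(FPKM + 0.1) ran from 0.36 for Cr2 to 1.19 for Ms4a1, with a median of 0.83, where the median over the 20448 genes tested was 0.00. Ms4a1, Cd79a, Pax5, Cd22, Blk and Cd79b lay between 0.81 and 1.19, Bank1 at 0.74, Fcer2a at 0.47 and Cr2 at 0.36, and these differences were not tested against each other. All 9 passed the filter of a mean of 0.1 FPKM, and each held between 31 and 532 reads in every library. In the limma fit over all genes, 6 of the 9 had a Benjamini-Hochberg adjusted p under 0.05 and a higher level in the IPF group, as did 3.71% of all genes tested (5.85% in either direction). A log2 change above 1 was also reached by 2 of the 9, Cd79a and Ms4a1, and by 0.68% of all genes in that direction (1.14% in either). In 5 of the 9, all IPF lungs lay above all sham lungs, as in 4.52% of all genes, while 2.77% of all genes had all IPF lungs below. Because the same contrast was known when the list was drawn up, nothing is read from these counts. In whole lungs, more B cells and more of these RNAs per B cell cannot be told apart.

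**Figure D1:**
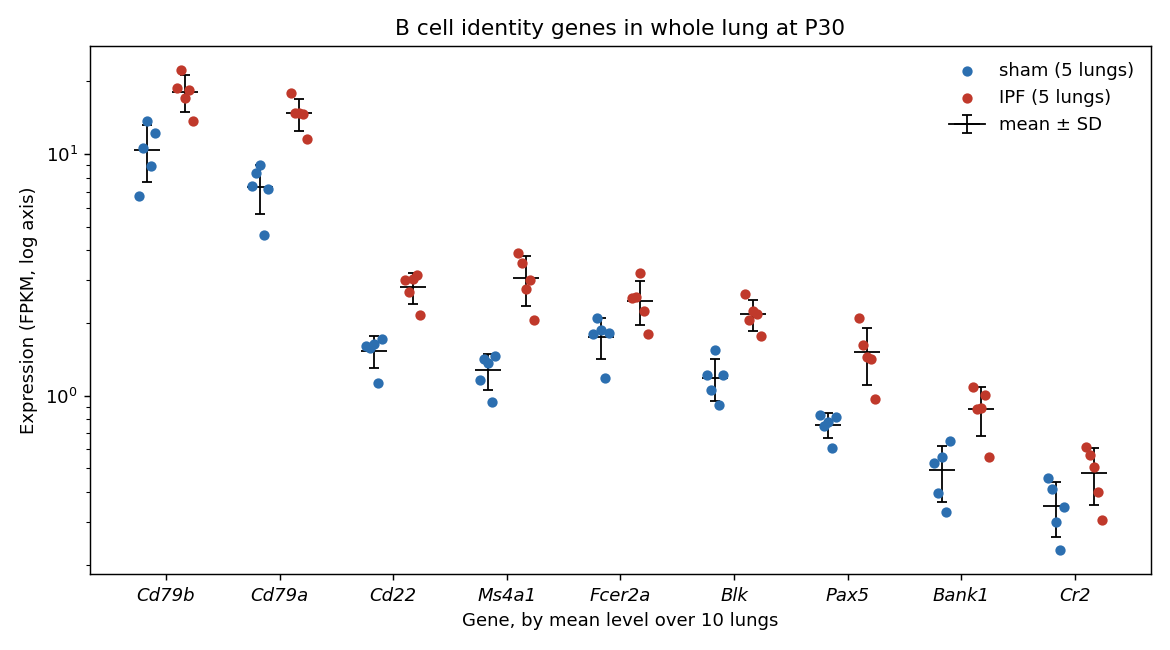
Level of each gene in FPKM (log axis) in the 5 sham (blue) and 5 IPF (red) lungs, with the mean and SD of each group, the genes ordered by their mean over 10 lungs. The groups do not overlap in Cd79a, Cd22, Ms4a1, Blk and Pax5, and they overlap in Cd79b, Fcer2a, Bank1 and Cr2.

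The signalling chains of the receptor were the most abundant of the list. Cd79a (ENSMUSG00000003379, chromosome 7 of GRCm38, 24897381 to 24902197) was at 17.9, 14.7, 14.8, 14.6 and 11.6 FPKM in IPF replicates 1 to 5 and at 7.41, 8.38, 9.02, 4.62 and 7.20 FPKM in sham replicates 1 to 5. Every IPF lung was above every sham lung, and the lowest lungs were IPF replicate 5 and sham replicate 4. The means were 14.7 ± 2.23 and 7.33 ± 1.68 FPKM (SD, n = 5 each), a difference of 1.02 in log2(FPKM + 0.1) with a standard error of 0.17, or 2.01 times as much on the FPKM scale.
Cd79b (ENSMUSG00000040592, chromosome 11, 106311341 to 106314762) was at 18.8, 22.3, 17.1, 18.4 and 13.7 FPKM in IPF replicates 1 to 5 and at 6.70, 10.6, 13.7, 8.90 and 12.2 FPKM in sham replicates 1 to 5. IPF replicate 5 and sham replicate 3 met at the same level, and the 4 other IPF lungs were above all sham lungs. The group means of 18.1 ± 3.11 and 10.4 ± 2.75 FPKM (SD, n = 5 each) gave a log2 difference of 0.81 with a standard error of 0.18.

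Cd22 and Cr2 modulate the receptor from the cell surface, Cd22 as a brake and Cr2 as the part of the co-receptor that binds complement fragments on antigen. Cd22 (ENSMUSG00000030577, chromosome 7) was at 3.01, 2.69, 3.04, 3.16 and 2.15 FPKM in IPF replicates 1 to 5 and at 1.61, 1.57, 1.63, 1.13 and 1.72 FPKM in sham replicates 1 to 5. The groups were apart, with sham replicate 4 well under the 4 other sham lungs, and the log2 difference was 0.83 with a standard error of 0.14.
Cr2 (ENSMUSG00000026616, chromosome 1, 195136811 to 195176716), also made by follicular dendritic cells, had the lowest level of the list. It was at 0.616, 0.569, 0.509, 0.399 and 0.307 FPKM in IPF replicates 1 to 5 and at 0.456, 0.412, 0.299, 0.229 and 0.348 FPKM in sham replicates 1 to 5. Here 3 of 5 IPF lungs were above all sham lungs and IPF replicates 4 and 5 lay inside the sham range. The log2 difference of 0.36 had a standard error of 0.22.

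Ms4a1 encodes CD20, a membrane protein of B cells from the precursor to the memory stage (ENSMUSG00000024673, chromosome 19, 11249675 to 11266241). It was at 3.90, 3.55, 2.78, 3.01 and 2.06 FPKM in IPF replicates 1 to 5 and at 1.17, 1.42, 1.37, 0.941 and 1.46 FPKM in sham replicates 1 to 5. All IPF lungs were above all sham lungs, and the difference was the largest of the list, 1.19 on the log2 scale with a standard error of 0.18, or 2.40 times as much on the FPKM scale.
Fcer2a encodes CD23, the low-affinity IgE receptor of mature follicular B cells (ENSMUSG00000005540, chromosome 8, 3681737 to 3694175). It was at 2.55, 2.56, 3.23, 2.24 and 1.81 FPKM in IPF replicates 1 to 5 and at 1.81, 2.09, 1.87, 1.18 and 1.82 FPKM in sham replicates 1 to 5. The 4 first IPF lungs were above all sham lungs, while IPF replicate 5 lay inside the sham range, and the log2 difference was 0.47 with a standard error of 0.17.

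The remaining genes act inside the cell. Pax5 (ENSMUSG00000014030, chromosome 4, 44524757 to 44710487) ranged from 0.970 to 2.09 FPKM in the IPF lungs and from 0.610 to 0.829 FPKM in the sham lungs. The groups did not overlap, and the log2 difference was 0.88 with a standard error of 0.18. The Src-family kinase gene Blk (ENSMUSG00000014453, chromosome 14, 63372836 to 63417037) ranged from 1.76 to 2.63 FPKM against 0.912 to 1.55 FPKM, again without overlap, a log2 difference of 0.83 with a standard error of 0.15. The adaptor gene Bank1 (ENSMUSG00000037922, chromosome 3, 136053363 to 136326066) ranged from 0.559 to 1.09 FPKM against 0.329 to 0.648 FPKM. IPF replicate 5 was the lung that overlapped the sham range of Bank1, whose log2 difference was 0.74 with a standard error of 0.21.

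**Figure D2:**
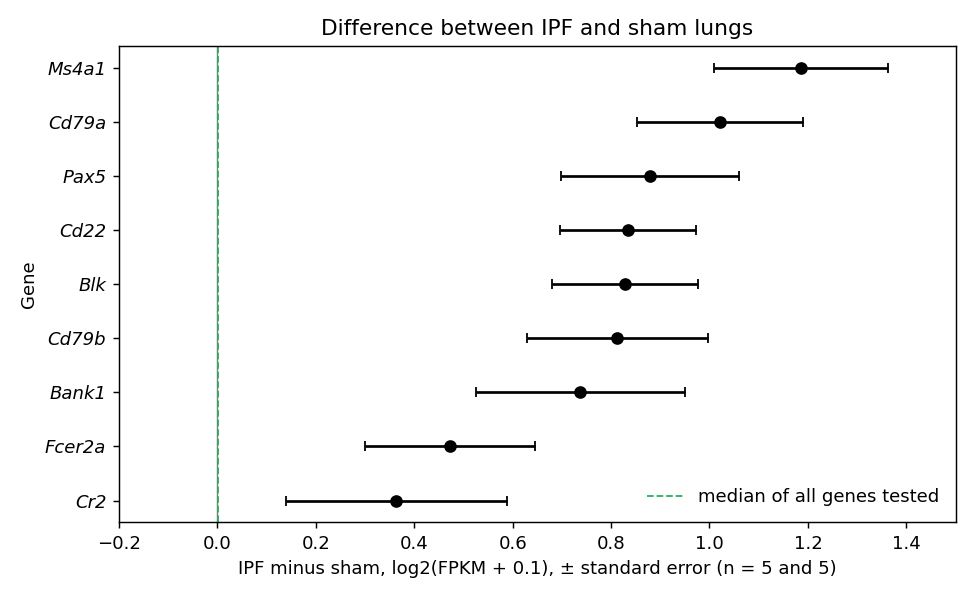
Difference between the 5 IPF and 5 sham lungs in log2(FPKM + 0.1) for each gene (points) with its standard error (bars), beside the median of all genes tested (dashed line, at 0.00). The values run from 0.36 for Cr2 to 1.19 for Ms4a1, and all lie to the right of 0.

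The order of the levels did not enter the choice of the list, and it was tested between neighbours within each lung, by an exact sign-flip permutation test of the log2 FPKM differences over the 10 lungs (two-sided, adjusted over 8 neighbour pairs). The neighbours were set by the mean levels in the same lungs, so the p-values describe how steady each step was from lung to lung and are no independent test of the order. Cd79b was above Cd79a in 9 of 10 lungs, by 0.39 ± 0.33 (SD, n = 10, exact permutation test, adjusted p = 0.00938), and sham replicate 1 was the exception. A wide step followed, with Cd79a above Cd22 by 2.31 ± 0.18 in all 10 lungs (SD, n = 10, exact permutation test, adjusted p = 0.00521). Over all 10 lungs, Cd22 and Ms4a1 did not differ beyond their spread (mean log2 difference 0.08 ± 0.28, SD, n = 10, exact permutation test, adjusted p = 0.397), nor did Ms4a1 and Fcer2a (-0.08 ± 0.46, SD, n = 10, exact permutation test, adjusted p = 0.578).
By group, Cd22 was above Ms4a1 in 5 of 5 sham lungs and in 3 of 5 IPF lungs, and Ms4a1 was above Fcer2a in 4 of 5 IPF lungs and in 0 of 5 sham lungs. This split follows from the differences by which the genes were chosen and was not tested. Below them, Fcer2a was above Blk in 9 of 10 lungs (exact permutation test, adjusted p = 0.0104), Blk above Pax5 and Pax5 above Bank1 in all 10 (exact permutation test, adjusted p = 0.00521 each), and Bank1 above Cr2 in 9 of 10 (exact permutation test, adjusted p = 0.00781). FPKM values are scaled by gene length, so these steps compare levels per length.

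Within the groups, the 9 genes were low together in 1 lung of each group. IPF replicate 5 had the lowest IPF value in 9 of 9 genes and sham replicate 4 the lowest sham value in 8 of 9, the exception being Cd79b, lowest in sham replicate 1. Their mean over the 9 genes lay 0.43 and 0.39 below the group mean on the log2 scale. The highest lung was IPF replicate 1 in 6 of 9 genes for the IPF group, while in the sham group replicates 3 and 5 each led in 3.
With the group means taken out, the 36 pairs of genes had a median Pearson correlation of 0.72 over the 10 lungs, from 0.13 to 0.90 (Spearman from 0.19 to 0.89, median 0.50). Without IPF replicate 5 and sham replicate 4, the lungs farthest from the median, the median Pearson correlation fell to 0.15, from -0.54 to 0.68, and 20 of the 36 pairs stayed positive. These 2 lungs were left out as the most extreme, a choice that lowers a correlation by itself. How far they carry the relation was not tested. All points share their libraries, so no test is given. The residual SD of the genes, from 0.22 to 0.34 on the log2 scale, lay near or above the median of 0.23 over all genes tested.

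**Figure D3:**
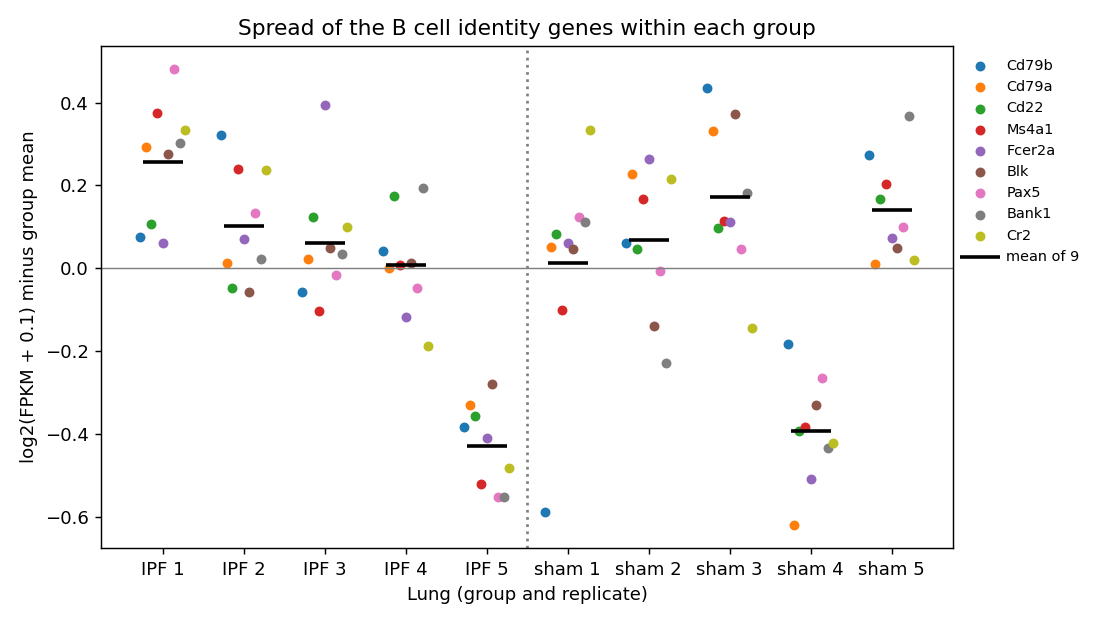
Deviation of each of the 9 genes (coloured points) from its own group mean, in log2(FPKM + 0.1), in the 10 lungs, with their mean in each lung (black bar). In IPF replicate 5 all 9 points lie below 0, at a mean of -0.43, as they do in sham replicate 4, at a mean of -0.39.

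Among 13438 other genes with a mean of at least 1 FPKM, the 10 whose deviations were most like the mean of the 9 had Pearson correlations from 0.89 to 0.96 over the 10 lungs (Spearman from 0.60 to 0.92), and from 0.42 to 0.83 without the 2 low lungs. Of these 10, 2 were on a list of B cell genes drawn up for this work, among them Spib, a transcription factor of B cells and plasmacytoid dendritic cells. The 8 others, Gga2, Gm14286, Bbs10, Mrpl1, Aplp1, Agfg2, Zfp13 and Jmjd8, had adjusted p between 0.115 and 0.995 for the difference between the groups (limma), and Gm14286 is annotated as antisense, so its reads may include those of its partner.

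The rest of the B cell programme was described with lists that do not hold the 9 genes. Of 114 further B cell genes, 102 passed the filter, and 27 of them were higher and 2 lower in the IPF lungs at an adjusted p under 0.05 (limma), where 3.71% and 2.14% of all genes tested were higher and lower. Their median log2 difference was 0.33, against 0.00 over all genes tested.

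**Figure D4:**
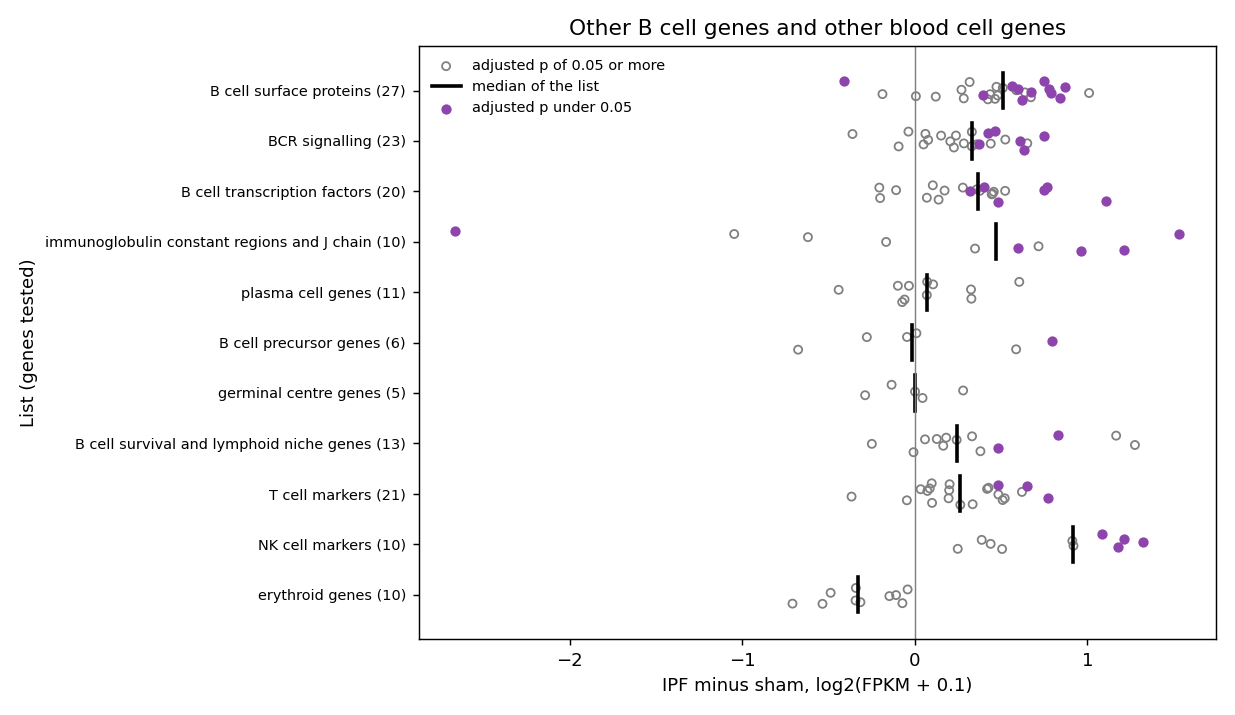
Difference between IPF and sham lungs in log2(FPKM + 0.1) for the tested genes of 11 lists (points), filled where the adjusted p was under 0.05 (limma), with the median of each list (black bar). B cell surface proteins centre on 0.51, plasma cell and germinal centre genes near 0, and Igha stands far to the left at -2.67.

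Of the surface proteins of B cells, 10 of 27 tested rose and 1 fell, with a median log2 difference of 0.51. Cd180, a Toll-like receptor homologue of B cells, rose by 0.84 (limma adjusted p = 0.00378), from 0.952 to 1.48 FPKM in the sham lungs to 2.13 to 2.76 FPKM in the IPF lungs. Cxcr5, the receptor that guides B cells to follicles, rose by 0.87 (limma adjusted p = 0.00612), from 0.667 to 1.14 FPKM in the sham lungs to 1.76 to 2.12 FPKM in the IPF lungs. Neither overlapped between the groups. Icosl, a T cell costimulator that B cells share with other cells, was the gene of this list that fell, with a log2 difference of -0.41 (limma adjusted p = 0.0116).

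Among 23 genes of receptor signalling, 6 rose and 0 fell, and the median was 0.33. Rasgrp3, an activator of Ras that endothelial cells also express, rose by 0.75 (limma adjusted p = 0.00107), followed by Rac2, a GTPase of blood cells (0.61, limma adjusted p = 0.00422), and the leukocyte phosphatase gene Ptprc, which encodes CD45 (0.42, limma adjusted p = 0.00825). Pik3cd, a lipid kinase subunit of leukocytes, rose by 0.37 (limma adjusted p = 0.0114) and Ptpn6, the phosphatase that CD22 recruits, by 0.47 (limma adjusted p = 0.0155). These 5 are shared with other leukocytes or with endothelium.
Of 20 transcription factors, 6 rose and 0 fell, with a median of 0.37. Pou2f2 rose by 0.77 (limma adjusted p = 0.00636) and Pou2af1, its co-activator in B cells, by 0.75 (limma adjusted p = 0.0159). Spib rose by 1.11 (limma adjusted p = 0.0267), although its adjusted p lay above 0.05, up to 0.068, in 7 of 20 alternative fits. Ets1 (0.32, limma adjusted p = 0.01), Relb (0.48, limma adjusted p = 0.0127) and Ikzf1 (0.40, limma adjusted p = 0.0364) act in many lymphoid cells. Ets1 was far more abundant than Pax5, at 42.0 to 50.5 FPKM in the IPF and 35.9 to 40.5 FPKM in the sham lungs. The cells that gave its reads were not determined. The call of Ikzf1 was lost in 10 of 20 alternative fits and that of Ets1 with quantile normalization (limma adjusted p = 0.0837). Ebf1, which acts with Pax5 in B cells and is also expressed in mesenchymal cells, had a log2 difference of 0.07 (limma adjusted p = 0.759).

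The constant regions of the immunoglobulins did not move one way. Of 10 tested genes of this list, which also holds Jchain, 4 rose and 1 fell (limma), with a median of 0.47. Ighm, the heavy chain of IgM, was at 45.4 to 63.7 FPKM in the IPF lungs and at 25.4 to 32.7 FPKM in the sham lungs, a log2 difference of 0.96 with a standard error of 0.09 (limma adjusted p = 0.000338). The light chain genes Igkc (0.60, limma adjusted p = 0.00636), Iglc1 (1.53, limma adjusted p = 0.00636) and Iglc2 (1.21, limma adjusted p = 0.00291) also rose, and reads of Iglc1 to Iglc3 can have been divided between near-identical copies. Ighd, the heavy chain of IgD on naive B cells, had a log2 difference of 0.35 with overlapping groups (limma adjusted p = 0.274).
Igha, the heavy chain of IgA, went the other way. It was at 0.135 to 1.01 FPKM in the IPF lungs and at 2.90 to 8.24 FPKM in the sham lungs, a log2 difference of -2.67 with a standard error of 0.43 (limma adjusted p = 0.00513). Jchain, which joins the units of IgA and IgM, had a log2 difference of -0.62 that did not pass the test (limma adjusted p = 0.178). Ighg2b, with at most 13 reads in any library, had one of -1.05 that did not pass either (limma adjusted p = 0.0972). At an unadjusted p under 0.05, 5 genes of the list were higher and 3 lower (limma). With voom 6 genes passed, 2 of them lower.
In the plasma cell list, 0 of 11 genes passed in either direction in the limma fit (3 had an unadjusted p under 0.05, and 0 passed with voom on recovered reads), and the median was 0.07. With the replicate block or with sample weights 1 of them passed, and without IPF replicate 5, 2 passed. Of the B cell precursor genes, 1 of 6 tested rose, Sox4, which many cell types of the lung express (0.80, limma adjusted p = 0.00574). The other 5 did not pass, although 2 genes of the list passed without IPF replicate 3. The median was -0.02. At an unadjusted p under 0.05 (limma), 1 of the 6 was higher and 2 were lower, Vpreb3 (log2 difference -0.68) and Il7r (-0.28). Rag1, Rag2, Dntt, Igll1 and Vpreb2 were below the filter. Of 5 tested germinal centre genes, 0 passed in the limma fit (median 0.00, 0 with an unadjusted p under 0.05 and 0 with voom), and 1 passed without IPF replicate 5.

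Of 10 natural killer cell markers, 4 rose and 0 fell, with a median of 0.92. Prf1 (1.09, limma adjusted p = 0.0129), Klra8 (1.32, limma adjusted p = 0.0177), Ncr1 (1.18, limma adjusted p = 0.0178) and Gzma (1.21, limma adjusted p = 0.0253) were those that rose, and 0 of the 10 markers were at 0 in all lungs. Gzma lost its call in 5 of 20 alternative fits, Ncr1 without IPF replicate 2 (limma adjusted p = 0.0508) and Klra8 with the replicate block (limma adjusted p = 0.0514). The summed level of the list was 19.0 to 26.7 FPKM in the IPF lungs and 9.06 to 15.0 FPKM in the sham lungs.
Of 21 T cell markers, 3 rose and 0 fell (median 0.26), and their sum was 68.1 to 76.6 FPKM in the IPF lungs and 50.2 to 66.5 FPKM in the sham lungs. Trbc2 rose by 0.65 (limma adjusted p = 0.0082), Cd247 by 0.77 (limma adjusted p = 0.0414) and Cd4 by 0.48 (limma adjusted p = 0.044), and the last 2 lost their call in 11 and 12 of 20 alternative fits. Cd3e, which defines T cells, had a log2 difference of 0.10 (limma adjusted p = 0.833) and Cd8a one of 0.62 (limma adjusted p = 0.103). Of 9 plasmacytoid dendritic cell markers, 2 rose, Ly6d (1.31, limma adjusted p = 0.0178), which B cells also express, and the interferon-induced Bst2 (0.51, limma adjusted p = 0.0296), whose call was lost in 7 of 20 alternative fits. Siglech, which defines these cells, had a log2 difference of 0.62 (limma adjusted p = 0.274). The sum of this list was 174 to 198 FPKM in the IPF lungs and 96.3 to 156 FPKM in the sham lungs, and Bst2, which many cell types express, made up most of it, at 133 to 158 FPKM and 75.8 to 125 FPKM. The part of these other leukocytes in the levels of the 9 genes was not tested.

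Of 13 tested genes of B cell survival and lymphoid niches, 2 rose and 0 fell (median 0.24). These were Ltb, a lymphotoxin chain made by lymphocytes (0.83, limma adjusted p = 0.0243, lost in 5 of 20 alternative fits), and Relb. The summed list was at 159 to 196 FPKM in the IPF and 130 to 169 FPKM in the sham lungs. Cxcl13, the chemokine of B cell follicles, was at 1.23 to 2.76 FPKM in the IPF and 0.741 to 1.75 FPKM in the sham lungs (log2 difference 0.33, limma adjusted p = 0.503). Ccl21a, a chemokine of lymphatic vessels and lymph nodes whose reads can be shared with close copies, was at 27.9, 35.3 and 24.7 FPKM in IPF replicates 2 to 4 and at 22.9 FPKM in sham replicate 3, and between 2.12 and 6.57 FPKM in the 6 other lungs (log2 difference 1.28, limma adjusted p = 0.41), and Ccl19 held at most 1 read in any lung. Both copies of Ccl19 in the table, on the assembled chromosome 4 and on a separate scaffold, were this low. Reads shared between near-identical copies may not have been counted. Glycam1, a gene of lymph node vessels named after its values were seen, was at 5.60 FPKM (226 reads) in IPF replicate 3 and was listed at 0 in the 9 other lungs. Without IPF replicate 3, the median log2 difference of the 9 B cell identity genes was 0.82. In that fit 6 of the 9, 28 of the other B cell genes and 1159 of all genes had an adjusted p under 0.05 (limma). IPF replicates 2 and 4, where Ccl21a was also high, stayed in the fit, and lymph node tissue as a source was not tested. Tnfsf13b, which encodes the survival factor BAFF, had a log2 difference of 0.24 (limma adjusted p = 0.154). Of the follicular dendritic cell genes, 0 of 5 tested passed in the limma fit (0 with an unadjusted p under 0.05, 0 with voom), with a median of 0.13 and a sum of 143 to 160 FPKM in the IPF and 134 to 159 FPKM in the sham lungs.
Of 10 thymus genes, 5 held at most 3 reads in every library, among them Foxn1 and Psmb11 at 0 and Ptcra with at most 2 reads, and 0 of 3 tested passed in the limma fit (1 with an unadjusted p under 0.05, 0 with voom, 1 without sham replicate 2). The sum of the list was 1.16 to 1.72 FPKM in the IPF and 0.878 to 1.30 FPKM in the sham lungs. Blood content varied widely without a difference between the groups that passed the test. The 10 erythroid genes summed to 321 to 3290 FPKM in the IPF and 837 to 3242 FPKM in the sham lungs, all 10 with lower means on the log2 scale in the IPF group and 0 past the limma test (0 with an unadjusted p under 0.05, 0 with voom). Hbb-bs, a beta globin, had a log2 difference of -0.34 (limma adjusted p = 0.851). With the group means taken out, the 10 erythroid genes had a median Pearson correlation of -0.50 with the mean of the 9 B cell identity genes (from -0.59 to 0.06). The part of blood content in the levels of the 9 genes was not tested.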

How the data were processed

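RNA of 10 whole-lung samples was sequenced. Per the study's methods, Fastp trimming and HISAT2 alignment were followed by StringTie, and the authors deposited an FPKM table of 54532 genes. The methods name GRCm39, but the gene positions are those of GRCm38. The methods and the sample records name different library kits, and the submitters' processing notes list Bowtie 0.12.2. Use of strand was not given in the sources used here. Each FPKM, multiplied by the length of its gene, came out as whole reads (100% of values within 0.02), which gave the depth. The 9 genes held 31 to 532 reads per library, so counting error weighs most on the lowest, Cr2.

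Genes with a mean of at least 0.1 FPKM entered a fit in R 4.3.3 by limma 3.58.1 (empirical Bayes with trend) on log2(FPKM + 0.1), which understates the change of low genes, IPF against sham, with Benjamini-Hochberg adjustment over 20448 genes. The count-based tool of the study was not run, and the recovered reads were tested with voom of limma. The 9 genes and all lists were chosen with earlier results of these data known. Named from each list were all genes with an adjusted p under 0.05 where these were at most 6, otherwise the 3 smallest in each direction, and fixed defining genes; a few genes that this rule names are not reported here. Levels of neighbouring genes were compared in Python 3.11.15 with scipy 1.17.1. No 2 libraries were copies (20 same-group pairs had a chi-square of 4.78 to 37.3 per degree of freedom). Of symbols with several rows, the more abundant was used. Scripts were tested on simulated data. Motifs were searched in RefSeq promoters. Alternatives were other pseudocounts, filters, scalings, variance models and weights, the replicate block, voom on the recovered reads and leaving out each lung.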

Additional observations from a re-analysis of the deposited data

Results flagged for a closer look

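For 21 genes (the 9 B cell identity genes and 12 defining genes of the lists), each group of 5 lungs was searched for a lung that stood apart from the 4 others on the log2 scale by Dixon's criterion. Of 42 groups, 4 held such a lung, where chance alone gives about 1 in 20. Cd22 was at 1.13 FPKM in sham replicate 4, with the other sham lungs between 1.57 and 1.72 FPKM, and Fcer2a was at 1.18 FPKM in the same lung, with the others between 1.81 and 2.09 FPKM. Igha was at 0.135 FPKM in IPF replicate 2, with the others between 0.699 and 1.01 FPKM. Cd3e was at 0.877 FPKM in sham replicate 1, the highest sham lung, with the others between 0.771 and 0.795 FPKM. The values of Cd22 and Fcer2a lie in the sham lung with the lowest mean over the B cell identity genes.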

How the results depend on the processing

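The direction of all 9 B cell identity genes was positive under every alternative that could be computed. Their median log2 difference of 0.83 was 0.54 with a pseudocount of 1, by construction of that scale, and 0.75 to 0.91 when each lung was left out. The count of these genes with a limma adjusted p under 0.05 was 6, and 5 to 7 when each lung was left out. It was 5 with the replicate number as a block. Cd79b lay above 0.05 in 7 of 20 alternatives and Bank1 below it in 3 of 19. For the other B cell genes the count of 29 ranged from 26 to 44 when each lung was left out, with 44 without IPF replicate 5, the lung lowest in the B cell identity genes, and was 28 with the replicate block. Over all genes, 1196 had an adjusted p under 0.05, from 775 (without IPF replicate 4) to 1620 (without IPF replicate 5) when each lung was left out and 1749 with sample weights. A log2 change of 1 was also passed by 233, from 171 to 299 when each lung was left out, against 74 with a pseudocount of 1 and 154 when genes needed a mean of 1 FPKM. With the replicate block these counts were 1045 and 202. The replicate block ended the calls of Cd79b, Spib, Cd81, Ikzf1, Ltb, Cd247, Cd4 and Klra8, and added those of Zeb2 and Xbp1. Same-numbered samples had correlations of -0.02 to 0.095, none of 5 pairs above 0.1, and were taken to share only a number, although 3 of 5 IPF lungs correlated best with the sham lung of their own number. Cr2 and Bank1 were not computed with the filter of 1 FPKM.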
